A study of Homo sapiens with 4 samples.

Results

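The genes described here encode 9 surface antigens by which B-precursor leukemia is recognised in diagnosis: MME (CD10), CD22, CD34, CD38, CD9, CD37, MS4A1 (CD20), CD52 and CD72. They were taken by symbol from the deposited count table, where all 9 were found among 23368 entries, and their HTSeq counts were scaled to CPM, a gene's share of the summed counts of its line. RNA was sequenced from 4 established lines of precursor acute lymphoblastic leukemia (ALL), grown untreated in RPMI medium with 10% fetal bovine serum to just below confluency. The translocation t(4;11), which rearranges the MLL gene, is present in RS4;11 and SEM, and these are called the translocated lines here. NALM6 and REH lack it and are called the untranslocated lines. Where a pair of values is given for a group, RS4;11 stands before SEM and NALM6 before REH. With 1 library per line and 2 lines per group, each line stands for 1 leukemia. Differences between the lines of a group form the spread behind the tests. Any other trait that sets RS4;11 and SEM apart from NALM6 and REH cannot be told apart from t(4;11). In such bulk RNA, fewer cells carrying an antigen and less of its RNA per cell cannot be told apart.

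Surface antigens follow the steps of B-cell formation. CD34 marks stem and progenitor cells, CD10 and CD38 are high on B-cell precursors, CD22 and CD72 appear early in the lineage, and CD20, CD37 and CD52 are typical of more mature B cells. Leukemias with t(4;11) are known in the clinic for an early B-precursor phenotype in which CD10 is missing.

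Summed gene counts lay between 33620574 (SEM) and 84212986 (REH) per line. The B-lineage was visible in each library: PAX5, a transcription factor of B-cell identity, had 273 and 419 CPM in the translocated lines, against 404 and 254 CPM in the untranslocated ones. Summed markers of T and NK, myeloid, erythroid and megakaryocyte, and stromal, endothelial and epithelial cells reached at most 49.8 CPM in any line. The 10 T and NK cell markers together reached 26.3 and 11.4 CPM in the translocated lines, against 23.1 and 3.95 CPM in the untranslocated ones, mainly NKG7 in the translocated lines and CD4 in the untranslocated ones, with CD3D, CD3E and CD3G at 0 counts in all 4 lines. The 9 myeloid markers summed to 16.3 and 49.8 CPM against 12.3 and 47.1 CPM, the 6 erythroid and megakaryocyte markers to 10.9 and 2.65 CPM against 0.780 and 3.13 CPM, and the 7 stromal, endothelial and epithelial markers to 2.22 and 4.19 CPM against 0.245 and 4.19 CPM. Most of the myeloid sum was CSF1R in SEM (33.3 CPM) and MPO in REH (34.2 CPM). That myeloid list does not hold the antigen genes ANPEP and FUT4. ANPEP had 0.848 and 195 CPM in the translocated lines, against 0.290 and 2.32 CPM in the untranslocated ones. FUT4 had 172 and 112 CPM against 24.4 and 33.8 CPM. The 4 plasma cell markers reached 271 and 129 CPM against 222 and 184 CPM, nearly all of it XBP1.

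The 9 antigen genes did not move as a block. MME and CD52 were lower by large folds in both translocated lines, CD22 was moderately lower, and CD37 was higher, though none of these differences passed the adjusted test of edgeR over all genes. CD38 and CD9 were high in RS4;11 but low in SEM, CD72 varied within both groups, and CD34 and MS4A1 stayed under 2 CPM in every line. In 4 genes (MME, CD22, CD38 and CD52) both translocated lines lay below both untranslocated lines, against a background of 28.3% of the 13844 genes tested, and in 1 gene (CD37) both lay above, against 19.0%. With TMM-scaled CPM those backgrounds became 23.4% and 24.2% and the members' counts stayed at 4 and 1. The members were chosen with earlier results of these data known, so these counts do not test them as a set. The median log2 fold change was -0.72 over the 9 members and -0.02 over all genes tested.

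**Figure D1:**
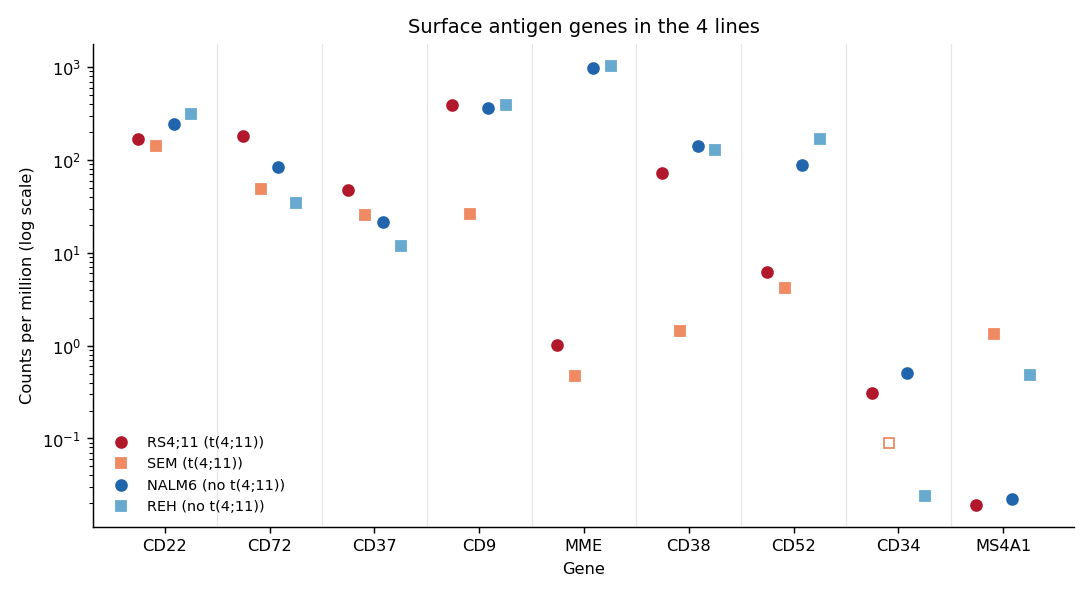
CPM of each antigen gene (logarithmic axis) in RS4;11 and SEM, which carry t(4;11), and in NALM6 and REH, which do not; each point is 1 library and the open square is the level of 3 counts for CD34 in SEM, which had 0 counts. MME and CD52 separate the groups, while for CD9 and CD38 the SEM point stands far below the other 3 lines.

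MME and CD52 had the largest differences between the groups. CD38 had the widest gap between the translocated lines, leaving aside the scarce CD34 and MS4A1. Promoter sequences of MME, CD52 and CD38 are therefore shown. They are RefSeq windows of 300 bases on GRCh38.p14, from 250 before to 50 after an annotated start, 5′ to 3′ on the gene's strand, and 7 of the 9 members had a window. Capitals mark the GC box GGGCGG in MME (chr3:155079422-155079721, + strand, the first of 4 starts), the PU.1 core GAGGAA in CD52 (chr1:26317708-26318007, + strand) and the E-box CANNTG in CD38 (chr4:15778078-15778377, + strand), each read on both strands.
MME: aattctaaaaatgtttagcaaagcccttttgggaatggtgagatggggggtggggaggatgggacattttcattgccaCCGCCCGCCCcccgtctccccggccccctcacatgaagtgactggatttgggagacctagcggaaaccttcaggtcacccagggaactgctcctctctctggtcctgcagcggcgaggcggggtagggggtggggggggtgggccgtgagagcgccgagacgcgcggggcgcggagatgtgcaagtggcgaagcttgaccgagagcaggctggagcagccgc
CD52: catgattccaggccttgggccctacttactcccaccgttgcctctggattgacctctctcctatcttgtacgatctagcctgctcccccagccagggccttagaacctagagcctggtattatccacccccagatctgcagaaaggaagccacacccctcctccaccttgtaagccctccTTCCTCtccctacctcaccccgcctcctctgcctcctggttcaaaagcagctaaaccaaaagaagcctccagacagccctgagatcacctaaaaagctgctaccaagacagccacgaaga
CD38: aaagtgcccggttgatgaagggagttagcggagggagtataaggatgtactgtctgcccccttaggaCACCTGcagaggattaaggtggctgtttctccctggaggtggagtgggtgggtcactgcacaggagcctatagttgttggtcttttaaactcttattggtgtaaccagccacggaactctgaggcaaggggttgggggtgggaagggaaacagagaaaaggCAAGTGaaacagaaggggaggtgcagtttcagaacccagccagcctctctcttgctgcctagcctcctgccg
The MME window held 19 CpG dinucleotides and 2 overlapping GC boxes, and its other 3 windows held 19 to 30 CpG. The windows of CD52 and CD38 held 4 CpG each, against a median of 14 over 35116 windows. A GC box occurred in 45.0% of all windows, a PU.1 core in 27.9% and an E-box in 68.7%. Other matches were left unmarked or not shown. The MME window also held 2 E-boxes, and windows of CD34, CD9 and CD72 held PU.1 cores. None of the members' windows held the TATA box TATAAA, the octamer ATGCAAAT or the RUNX core TGTGGT, which occurred in 11.5%, 1.77% and 13.1% of all windows. These matches describe letters and say nothing of binding in these lines.

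The stem cell sialomucin CD34 was close to the detection limit. It had 0.308 CPM in RS4;11 (16 counts) and 0 counts in SEM, against 0.513 CPM in NALM6 (23 counts) and 0.0237 CPM in REH (2 counts). The groups overlapped, and 0 counts in SEM allow up to 0.0892 CPM, taken as 3 counts, so that the RS4;11 level stood 3.46-fold above that floor. The lower 95% counting limit of the ratio of RS4;11 to SEM was 2.50. The ratio of NALM6 to REH was 21.6 (95% counting interval 5.34 to 189). The log2 fold change of t(4;11) over no t(4;11) was -0.60 (SE 2.19, adjusted p = 0.936 by edgeR's quasi-likelihood test), and it turned to 0.34 without SEM and 2.74 without NALM6. The related sialomucin gene PODXL, in contrast, had 92.6 and 54.1 CPM in the translocated lines, against 57.9 and 60.3 CPM in the untranslocated ones, and PODXL2 was under 1 CPM in all 4 lines.

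MME encodes neprilysin, a membrane metallopeptidase that cleaves peptides outside the cell. It had 1.02 CPM in RS4;11 (53 counts) and 0.476 CPM in SEM (16 counts), against 975 CPM in NALM6 (43739 counts) and 1031 CPM in REH (86784 counts). The groups lay far apart, and NALM6 and REH were nearly equal. The group means were 0.749 ± 0.386 CPM with t(4;11) and 1003 ± 39.1 CPM without (SD, n = 2 each), a fitted difference of 1223-fold. Its log2 fold change of -10.26 (SE 0.60) ranked 14th by p among 13844 genes, with an adjusted p = 0.102 by edgeR's quasi-likelihood test. These low counts still lay above a floor of 3 counts, and the ratio of RS4;11 to SEM was 2.15 (95% counting interval 1.21 to 4.02). GENCODE lists an antisense gene, MME-AS1, that shares 214 exonic bases with MME, and strand was not stated for the counting.

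The other M13 peptidase genes are relatives of MME. ECE1, an endothelin-converting enzyme, had 0.925 and 9.37 CPM in the translocated lines, against 6.87 and 38.0 CPM in the untranslocated ones, so the groups overlapped. ECE2 lay between 9.99 and 19.2 CPM in all 4 lines. Of the 6 family members 4 were tested, with a median log2 fold change of -0.96 and 2 lower in both translocated lines than in both others (28.3% of all genes were), and none was called in either deposited table.

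CD38, an enzyme that consumes NAD at the cell surface, stood at 72.8 CPM in RS4;11 but at 1.43 CPM in SEM, whereas NALM6 had 141 CPM and REH 127 CPM. RS4;11 lay below both untranslocated lines, and SEM far below the other 3 lines. The ratio of RS4;11 to SEM was 51.0 (95% counting interval 38.4 to 69.2), which compares these libraries only, while that of NALM6 to REH was 1.11. The groups did not overlap, at 37.1 ± 50.4 CPM with t(4;11) and 134 ± 9.71 CPM without (SD, n = 2 each). Its log2 fold change was -1.73, with an SE as large (1.74, adjusted p = 0.730 by edgeR's quasi-likelihood test), and it was -6.45 without RS4;11 and -0.75 without SEM.

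Of 8 genes, made up of NAD and nucleotide enzymes and the CD38 ligand PECAM1, 5 were tested, with a median log2 fold change of 2.26 and 3 higher in both translocated lines than in both others (19.0% of all genes were). PECAM1 had 1.20 and 15.2 CPM in the translocated lines, against 0.134 and 0.154 CPM in the untranslocated ones. BST1, the closest relative of CD38, had 0.848 and 0.416 CPM against 0.245 and 0.237 CPM. ENPP1, a phosphodiesterase that cleaves nucleotides, had 2.64 and 5.95 CPM in the translocated lines, while both untranslocated lines were at 0 counts, and both of the authors' deposited tables called it higher. The groups overlapped for NT5E, the ectonucleotidase CD73, with 5.88 and 28.9 CPM in the translocated lines, against 0 counts and 7.68 CPM in the untranslocated ones. They overlapped too for SARM1, an intracellular NAD-cleaving enzyme, with 2.06 and 1.28 CPM against 1.47 and 7.83 CPM.

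CD9 and CD37 are tetraspanins, small membrane proteins that organise receptors into clusters. CD9 stood at 396 CPM in RS4;11 but at 26.1 CPM in SEM, whereas NALM6 had 366 CPM and REH 388 CPM. The groups overlapped: RS4;11 was level with the untranslocated lines, and SEM alone was low. The ratio of RS4;11 to SEM was 15.1 (95% counting interval 14.1 to 16.2). A log2 fold change of -0.72 (SE 1.29, adjusted p = 0.857 by edgeR's quasi-likelihood test) turned to 0.20 without SEM and became -3.75 without RS4;11.

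CD37, found mainly on B cells, stood at 46.9 CPM in RS4;11 and at 25.8 CPM in SEM, whereas NALM6 had 21.7 CPM and REH 11.8 CPM. Both translocated lines lay above both others, but the step from SEM to NALM6 was smaller than the gaps within the groups. The ratio of RS4;11 to SEM was 1.82 and that of NALM6 to REH 1.84. CD37 had a log2 fold change of 1.23 (SE 0.52, adjusted p = 0.464 by edgeR's quasi-likelihood test), which lay between 0.72 and 1.73 when each line was left out. CD37 shares 319 exonic bases with TEAD2 on the opposite strand, a gene under 1 CPM in every line.

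Among the 31 other tetraspanin genes 19 were tested, with a median log2 fold change of -0.08. The highest by FPKM in the authors' deposited Cuffdiff table were CD81, a broadly expressed tetraspanin, with 325 and 228 CPM in the translocated lines and 288 and 142 CPM in the untranslocated ones, and CD53, with 207 and 171 CPM against 141 and 121 CPM. TSPAN9 had 0.193 and 0.119 CPM in the translocated lines, against 12.4 and 78.5 CPM in the untranslocated ones. CD82 was lowest in SEM, as CD9 was, with 6.15 and 0.744 CPM against 6.29 and 23.0 CPM. No tetraspanin was called in the authors' deposited DESeq table, and TSPAN8, under 2 CPM in every line, was called lower in their deposited Cuffdiff table.

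CD22 and CD72 are receptors that restrain signalling from the B-cell receptor. CD22, which binds sialic acid, stood at 167 CPM in RS4;11 and at 141 CPM in SEM, whereas NALM6 had 245 CPM and REH 314 CPM. Both translocated lines lay below both others, and the lines of each group were close to each other, at 154 ± 18.3 CPM with t(4;11) and 279 ± 48.7 CPM without (SD, n = 2 each). Between the groups CD22 had a log2 fold change of -0.75 (SE 0.22, unadjusted p = 0.0294, adjusted p = 0.382 by edgeR's quasi-likelihood test). The fitted difference was 1.69-fold, and its log2 value lay between -0.92 and -0.57 when each line was left out, the narrowest range among the 9 members. DESeq2 gave it an adjusted p = 0.0440 and edgeR's exact test 0.658.

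CD72, a C-type lectin-like receptor whose ligand is SEMA4D, stood at 180.1 CPM in RS4;11 and at 48.4 CPM in SEM, whereas NALM6 had 85.0 CPM and REH 34.4 CPM. The lines of the groups alternated, with RS4;11 highest and REH lowest. The ratio of RS4;11 to SEM was 3.72 and that of NALM6 to REH 2.47. The log2 fold change of 1.05 (SE 0.85, adjusted p = 0.663 by edgeR's quasi-likelihood test) turned to -0.21 without RS4;11. CD72 shares 509 exonic bases with TESK1 on the opposite strand, which had 18.4 and 28.5 CPM in the translocated lines and 16.3 and 16.9 CPM in the untranslocated ones.

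Partners of these receptors carry or reverse their signal. PTPN6, the phosphatase SHP-1 that both receptors recruit, had 439 and 442 CPM in the translocated lines, against 281 and 57.2 CPM in the untranslocated ones. LYN, the kinase that phosphorylates them, had 201 and 140 CPM in the translocated lines, while NALM6 had 224 CPM and REH 8.35 CPM. ST6GAL1, which makes the sialic acid ligand of CD22, had 279 and 241 CPM against 200.4 and 86.7 CPM. BLNK, the adaptor downstream of the pre-B receptor, had 6.82 and 0.178 CPM in the translocated lines, against 89.5 and 260 CPM in the untranslocated ones, and was called lower in the authors' deposited Cuffdiff table (q = 0.0449) but not in their deposited DESeq table. All 13 partner genes were tested, with a median log2 fold change of -0.19, 3 higher and 4 lower in both translocated lines than in both others, near the 19.0% and 28.3% of all genes.

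Of the 14 other Siglec genes, relatives of CD22, 4 were tested and none was called in either deposited table. Their median log2 fold change was 0.76. Both translocated lines lay above both others for 1 of them and below for 1, where 19.0% and 28.3% of all genes did. SIGLEC10 had 24.1 and 2.86 CPM in the translocated lines, against 18.5 and 0.511 CPM in the untranslocated ones. CD33, a myeloid antigen, had 0.771 and 11.1 CPM against 5.98 and 0.843 CPM. Neither separated the groups.

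MS4A1 encodes CD20, the target of rituximab, which is more typical of mature than of precursor B cells. It had 0.0193 CPM in RS4;11 (1 count) and 1.34 CPM in SEM (45 counts), against 0.0223 CPM in NALM6 (1 count) and 0.487 CPM in REH (41 counts). Each group held a line with 1 count, and the groups overlapped. The ratio of RS4;11 to SEM was 0.0144 (95% counting interval 0.000357 to 0.0844) and that of NALM6 to REH 0.0458 (0.00113 to 0.270). The log2 fold change of 1.45 (SE 2.26, adjusted p = 0.828 by edgeR's quasi-likelihood test) turned to -3.49 without SEM. Of the 13 relatives found among the entries, 3 were tested and none was called in either deposited table. MS4A4A had 2.37 and 0.982 CPM in the translocated lines, against 0.0892 and 7.58 CPM in the untranslocated ones, and MS4A7 had 2.74 and 2.20 CPM against 0 counts and 0.629 CPM.

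CD52, a short glycoprotein held by a GPI anchor and the target of alemtuzumab, stood at 6.23 CPM in RS4;11 and at 4.19 CPM in SEM, whereas NALM6 had 88.5 CPM and REH 169 CPM. The groups lay well apart, with each line of a group within 2-fold of the other. The group means were 5.21 ± 1.44 CPM with t(4;11) and 129 ± 56.7 CPM without (SD, n = 2 each), a fitted difference of 22.9-fold. Its log2 fold change was -4.52 (SE 0.51, adjusted p = 0.274 by edgeR's quasi-likelihood test), 59th by p among all genes tested, and it lay between -4.91 and -3.98 when each line was left out. CD52 shares 25 exonic bases with UBXN11 on the opposite strand, which had 12.5 and 16.2 CPM in the translocated lines and 25.3 and 23.0 CPM in the untranslocated ones.

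Of 11 other genes of GPI-anchored leukocyte proteins 9 were tested, with a median log2 fold change of 0.65, 2 higher and 1 lower in both translocated lines than in both others, where 19.0% and 28.3% of all genes were. CD55, a complement regulator, had 38.8 and 26.9 CPM in the translocated lines, against 48.1 and 20.6 CPM in the untranslocated ones, and PRNP, the prion protein gene, had 84.4 and 139 CPM against 51.7 and 101 CPM. CD109 had 105 and 231 CPM in the translocated lines, against 32.6 and 66.2 CPM in the untranslocated ones. The authors' deposited Cuffdiff table called it higher (q = 0.0365). CD24 was called lower in both deposited tables, but it has near-identical copies and its level is uncertain.

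**Figure D2:**
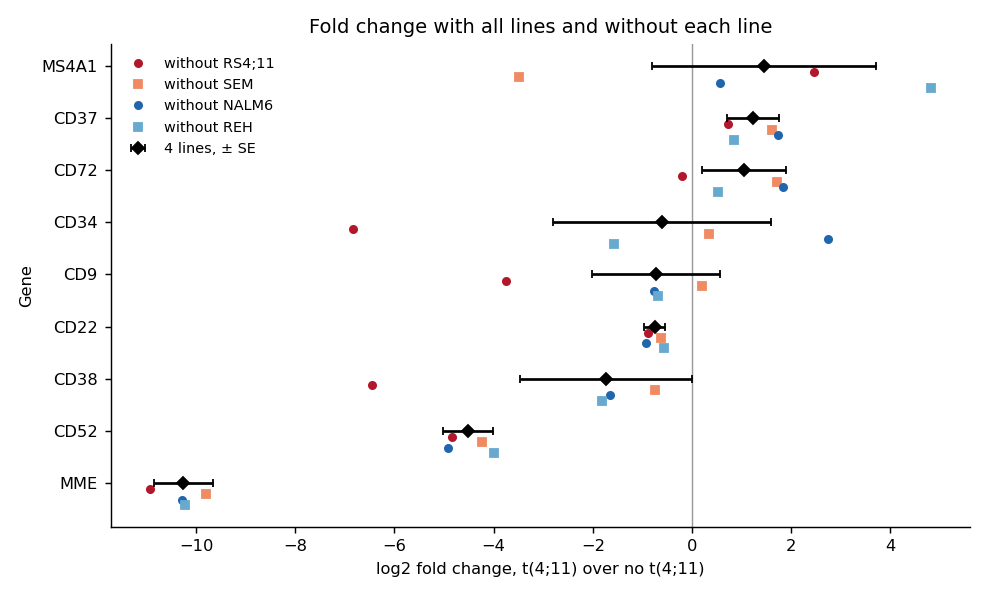
Log2 fold change of each antigen gene, t(4;11) over no t(4;11), with all 4 lines (black diamonds, bars ± SE) and with each line left out (coloured points). MME at -10.26, CD52 at -4.52, CD22 at -0.75 and CD37 at 1.23 kept their sign under each omission, while CD38 moved to -6.45 without RS4;11 and CD9, CD72, CD34 and MS4A1 changed sign.

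Tested over the whole table with edgeR's quasi-likelihood test, 0 of the 9 members were called, and 0 of 13844 genes (0.0%), at an adjusted p under 0.05, the smallest being 0.0507. At an unadjusted p under 0.05 it listed 3 members lower (MME, CD22 and CD52) and 0 higher, against 5.87% and 6.18% of all genes. DESeq2 called 3 members lower (MME, CD22 and CD52), against 5.53% of all genes called lower, and edgeR's exact test called 2 (MME and CD52), against 1.16%. In the authors' deposited DESeq table MME and CD52 were called lower (adjusted p = 1.1e-61 and 0.00167), 2 members against 0.63% of 18416 genes called lower. In the authors' deposited Cuffdiff table only MME was (q = 0.0211, against 1.11% called lower), and CD52 had q = 0.152. Because earlier results of these data were known when the members were chosen, the shares of all genes give no test of the members as a set. Each p-value sets the difference against the spread that its own method estimates from 2 lines per group. For MME the adjusted p was 0.102 by edgeR's quasi-likelihood test and 1.1e-61 by the authors' DESeq, from the same 4 lines. The reason for this gap was not tested.

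**Figure D3:**
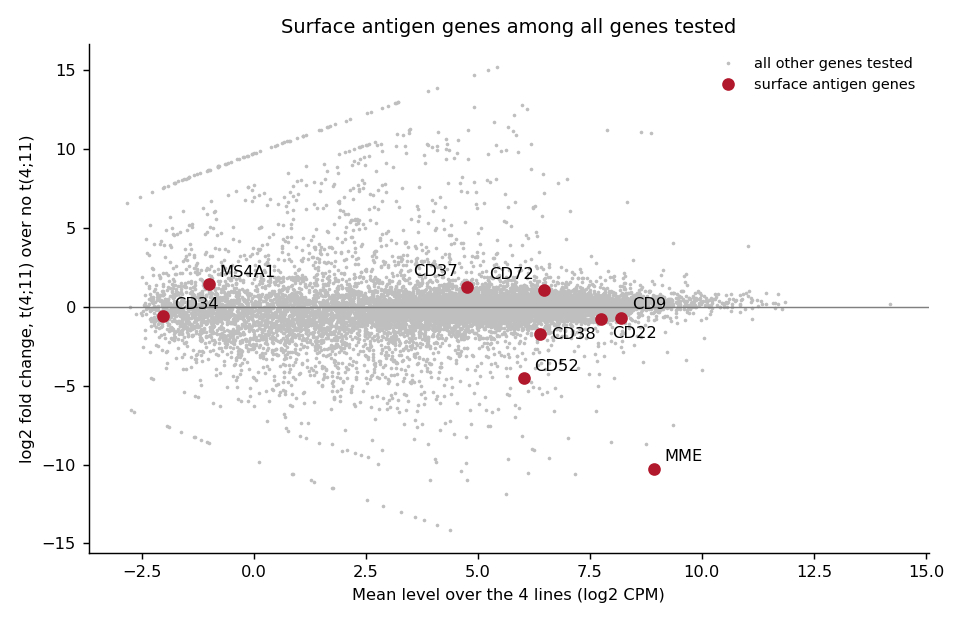
Log2 fold change against mean level (log2 CPM) for the 13844 genes tested by edgeR (grey) with the 9 antigen genes in red. MME, at -10.26, is an outlying point among abundant genes and CD52, at -4.52, lies below the main cloud, while CD22, CD9, CD37 and CD72 lie within or at the edge of it.

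Genes can be compared with each other only per length, for which the authors' deposited Cuffdiff table gives 1 FPKM per group. In the t(4;11) group the order of FPKM levels was CD9 (188), CD72 (79.2), CD22 (49.6), CD37 (33.4), CD38 (28.4), CD52 (15.8), MS4A1 (0.211), MME (0.138) and CD34 (0.0641). In the group without t(4;11) it was CD52 (364), CD9 (311), MME (171), CD38 (94.2), CD22 (83.0), CD72 (38.7), CD37 (14.5), CD34 (0.0992) and MS4A1 (0.0727). MME thus held rank 8 of 9 with the translocation and rank 3 without it, and CD52 held ranks 6 and 1. The t(4;11) values of CD9, CD38 and CD72 average a high and a low line. Those of CD34 and MS4A1 do so in both groups, from few counts. Loci in hg19 were chromosome 3, 154797436 to 154901518, for MME and chromosome 12, 6309482 to 6347437, for CD9. Those of CD37, CD52 and CD72 were grouped with TEAD2, UBXN11 and TESK1 by Cuffdiff, so their span is wider than the gene.

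**Figure D4:**
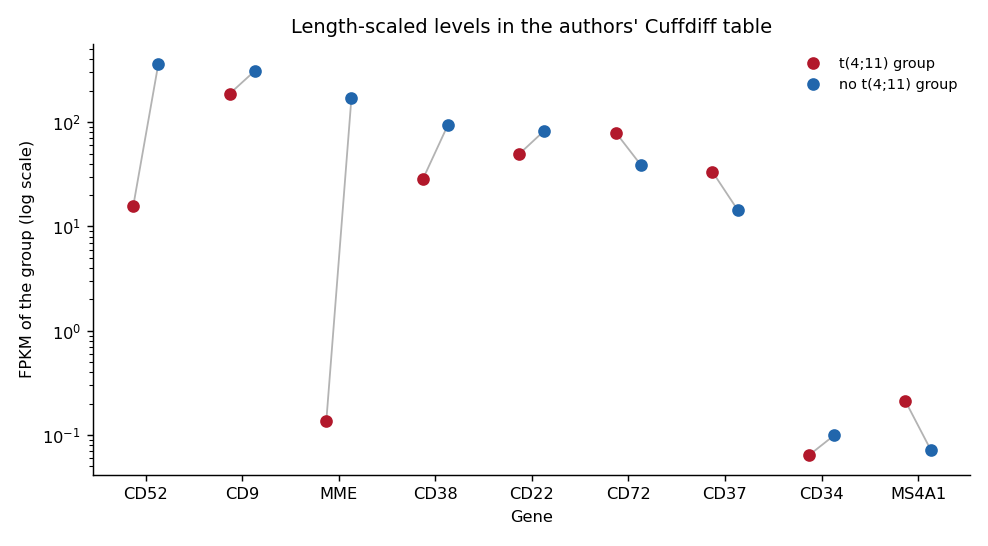
FPKM of each antigen gene (logarithmic axis) in the t(4;11) group and the group without t(4;11), from the authors' deposited Cuffdiff table, 1 value per group with no error. CD52 and CD9 lead the group without t(4;11) at 364 and 311, and CD9 leads the t(4;11) group at 188.

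The lines of a group differed among themselves. SEM had the lowest level of MME, CD22, CD38, CD9 and CD52. For CD34 its 0 counts, with a floor of 0.0892 CPM, could not be ranked against 0.0237 CPM in REH. On log2(CPM + 1), 2 members (CD38 and CD9) differed at least 4-fold between RS4;11 and SEM, against 4.93% of all genes tested. Between NALM6 and REH 0 members differed that much, against 8.83% of all genes.

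**Figure D5:**
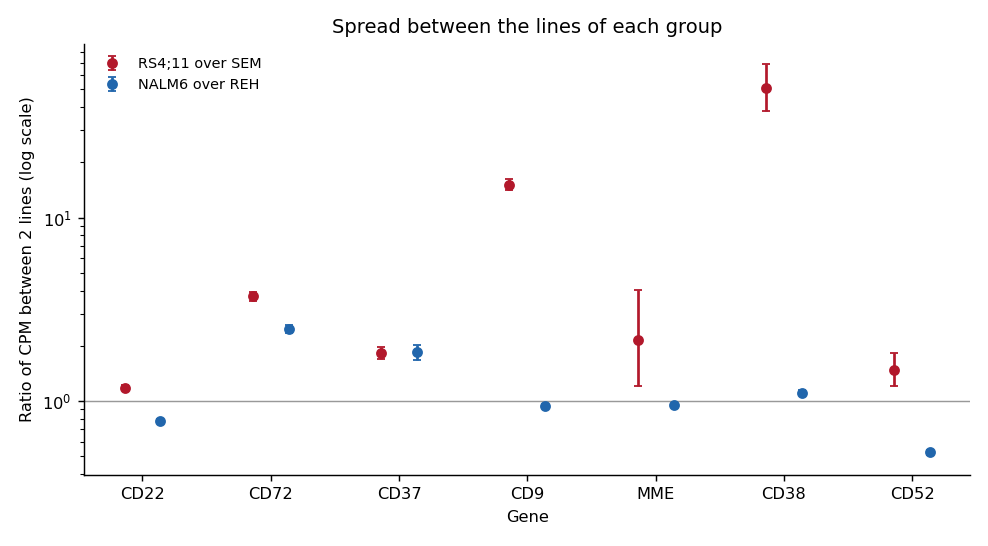
Ratio of CPM between the 2 lines of each group (logarithmic axis), RS4;11 over SEM and NALM6 over REH, with 95% counting intervals; CD34 and MS4A1 are left out for low counts. RS4;11 exceeds SEM 51.0-fold for CD38 and 15.1-fold for CD9, while the ratio of NALM6 to REH lies between 0.524 (CD52) and 2.47 (CD72).

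Other markers used in diagnosis went both ways. Of 27 genes 22 were tested, with a median log2 fold change of 0.67, 5 higher and 6 lower in both translocated lines than in both others, near the shares of all genes (19.0% and 28.3%). The authors' deposited DESeq table called CD44, CSPG4, PROM1 and FUT4 higher (0.934% of all genes were) and CD79B, CD24, CD200 and DNTT lower (0.63%). Their deposited Cuffdiff table added PTPRC and CD86 to the higher ones (1.23% of all genes) and left out CD200 of the lower ones (1.11%). These 2 tables rest on the same libraries. CD200, an immunoglobulin-family glycoprotein, had 0.0964 and 0.0297 CPM in the translocated lines, against 14.4 and 34.6 CPM in the untranslocated ones. CD79B, a chain of the B-cell receptor, had 122 and 9.73 CPM against 305 and 406 CPM. PTPRC, the common leukocyte antigen CD45, had 674 and 93.4 CPM in the translocated lines, against 44.9 and 209 CPM in the untranslocated ones, so the groups overlapped. CD58, an adhesion molecule used to follow residual disease, had 14.7 and 30.0 CPM against 51.3 and 62.8 CPM and was not called.

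The genes whose profile over the 4 lines was closest to each member, by Euclidean distance between centred log2(CPM + 1) values among 13843 other genes, were AKAP12 and ITPR3 for MME (distances 1.66 and 1.96), CD200 and ADAMTS7 for CD52 (0.363 and 0.587), and SNX19 and NRIP1 for CD38 (0.773 and 0.811). DOK3 and the surrogate light chain gene IGLL1 were nearest to CD9 (0.339 and 0.361), FABP5 and ANKRD27 to CD37 (0.130 and 0.229), and ITPKB and CD48 to CD72 (0.162 and 0.377). IGLL1 had 462 and 27.1 CPM in the translocated lines, against 532 and 505 CPM in the untranslocated ones, low in SEM alone as CD9 was. AKAP12 had 2.12 and 0.387 CPM against 719 and 323 CPM. The nearest genes were MRPL45P2 and GCFC1-AS1 for CD22 (0.0419 and 0.0617), LOC100859930 and GCDH for CD34 (0.0310 and 0.0414), and PARD6G and ALDH7A1 for MS4A1 (0.0537 and 0.0802). The small distances of CD34 and MS4A1 do not mean like profiles, because adding 1 CPM flattens genes this low. GCDH, for example, had 34.9 and 26.4 CPM in the translocated lines, against 40.6 and 26.2 CPM in the untranslocated ones. Adding 1 CPM also flattens CD200 and ADAMTS7, the genes nearest to CD52, which were both under 1 CPM in the translocated lines. The log2 fold change of CD200 was -8.39, against -4.52 for CD52. With a pseudocount of 0.1, both nearest genes were kept for CD37, 1 for CD72 and 0 for each of the other 7 members.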

How the data were processed

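RNA-seq counts of 4 lines were analysed. Per the file headers, the authors deposited raw HTSeq counts for every gene in each line, together with a DESeq signal (each count divided by a size factor), its group means, a fold change as the ratio of control to t(4;11), and p-values and adjusted p-values. A second deposited table holds Cuffdiff's FPKM per group, log2 fold changes of control over t(4;11), a test score, p-values and q-values. Fold changes were inverted to t(4;11) over no t(4;11). Build hg19 and the tools TopHat2 2.0.4, CASAVA 1.8.2, HTSeq, DESeq and Cuffdiff come from the submitters' processing notes. Annotation and settings were not given in the sources used. The labels' protocols name a TruSeq RNA kit, and strand was not stated.

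The test was edgeR 4.0.16 (R 4.3.3): TMM, filterByExpr, glmQLFit and glmQLFTest on all 4 lines, two-sided, Benjamini-Hochberg over 13844 genes at 0.05, with 2 residual degrees of freedom and a biological coefficient of variation of 0.699. An SE is the log2 fold change over the square root of F. All 9 members passed the filter. CPM used column sums. Counting intervals (95%, exact) and floors (3 counts) cover only counting error, because reads lack molecular identifiers and may be PCR copies. DESeq2 1.42.0, edgeR's exact test, RLE and column-sum scaling, no filter and leaving out each line were alternatives. Replicate numbers follow listing order and pair no lines. The code of the fit was checked on simulated counts with large changes and a lower spread than these lines show, which says nothing of its power here. Named genes were the members, list genes called in a deposited table or needed to place a member, and the 2 nearest profiles of each member. Shared exons came from GENCODE 29 (GRCh38). The members and the 15 lists of related genes were chosen with earlier results of these data known.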

Additional observations from a re-analysis of the deposited data

How the results depend on the processing

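At an adjusted p under 0.05 the number of genes called over the whole table was 0 with edgeR's quasi-likelihood test, 0 with RLE size factors or column sums, and 0 to 0 when each line was left out (1668 genes had an unadjusted p under 0.05). It was 5 with no filter on low counts, 441 with edgeR's exact test (280 higher, 161 lower) and 1586 with DESeq2 (801 higher, 785 lower). The cause of these differences was not tested. Column sums in place of TMM shifted the median log2 fold change of all genes by -0.10, and the members' values by a similar amount, with no change of sign. Of 81 alternative values of the members' log2 fold changes, 71 kept direction and side of the threshold. The exact test called MME and CD52, and DESeq2 called these and CD22. With each line left out in turn, the log2 fold change ranged from -6.84 to 2.74 for CD34 (0.34 without SEM), from -3.75 to 0.20 for CD9, from -3.49 to 4.83 for MS4A1, from -0.21 to 1.84 for CD72 and from -6.45 to -0.75 for CD38. A group left with 1 line is there assumed to vary like the other. TMM scaling moved all 18 group means of CPM by less than 1 SD. No paired analysis was possible because the labels match no translocated line to an untranslocated one. Depth limits CD34 and MS4A1, whose counts were 45 or fewer in every line.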
